A study of Mus musculus with 30 samples.

Results

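Total RNA from the testis of mice without Ythdc2 was set against that of controls at postnatal day 10, gene by gene. The members were all 14846 gene identifiers in the authors' deposited table for that age, of 55569 identifiers in all tables of the series, and each was described by its total RNA effect. The knockout group was 3 Ythdc2 -/- animals, and the controls were 2 Ythdc2 +/- animals and 1 Ythdc2 +/+ animal that the authors pooled. All 6 mice were labelled C57BL/6J, RNA came from whole testis, and each animal gave 1 of the 30 libraries of the series for total RNA and 1 for ribosome footprints, mRNA pieces protected from nuclease by ribosomes. A different set of animals, 3 Ythdc2 -/- and 3 Ythdc2 +/+, gave total RNA at day 8. For levels alone, total RNA of 3 adult C57BL/6J testes was used, heterozygous for another Ythdc2 allele, WLA, and aged 20 or 24 weeks. Of the controls at day 10, 2 carried 1 knockout allele, so the comparison is not one with wild-type testis alone.

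The YTHDC2 protein joins an RNA helicase to a YTH domain, the fold that reads N6-methyladenosine in RNA, and mouse spermatogonia need it to leave mitosis for meiosis in full. In the first wave of spermatogenesis, spermatogonia stop dividing by mitosis, and retinoic acid switches on STRA8 and its partner MEIOSIN. These transcription factors turn on genes whose products build the meiotic chromosome axis, cut the DNA, exchange strands, zip homologous chromosomes together and tie telomeres to the nuclear envelope. At day 10 of normal mouse development germ cells in the testis are passing through this switch.

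An effect is the knockout mean minus the control mean on the scale that the authors' software anota2seq was given, read here as log2, and a negative effect means less RNA in knockout testis. The deposited table holds no value per animal, so the spread between animals and the depth of these libraries are unknown here, and each effect stands with anota2seq's adjusted p alone. The level of Ythdc2 itself was not analysed here, so the knockout was not checked on its own transcript. Effects were small over most of the genome: in the authors' deposited table their median was 0.00058, with quartiles of -0.030 and 0.033, and 7170 identifiers lay below 0 and 7676 above it. The tail was longer on the lower side, with 75 identifiers below -0.263 (0.263 is the log2 of 1.2) and 13 above 0.263, and with 21 below -0.5 and 1 above 0.5. Of marker genes, all 15 Sertoli cell genes, all 12 Leydig cell genes and 17 of 18 germ cell and piRNA genes were measured. Of 10 round spermatid genes, 7 were not among the identifiers. All 12 endothelial genes and all 15 macrophage and MHC class II genes were measured too. Being measured gives no level, so the tissue label could not be checked in this way.

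No identifier had an adjusted p under 0.05 (anota2seq) in the authors' deposited table; the smallest was 0.0546. If the adjusted values are Benjamini-Hochberg values over these identifiers, at most 1856 of them had an unadjusted p under 0.05. With a threshold of 0.1, 24 of 14846 identifiers (0.162%) were called, 12 higher in the knockout (0.0808%) and 12 lower (0.0808%), all of them protein coding. Looser thresholds of 0.11 and 0.15 called 112 (0.754%) and 198 (1.33%). The threshold falls in a run of ties, since the largest adjusted p inside it was 0.0974 and the next, 0.102, was shared by 75 identifiers. Of the 12 genes called lower, 6 belonged to the 7 lists of meiotic genes described further on, and of the 12 called higher none did. These lists held 64 of the 14846 identifiers. They were drawn up with earlier results of these animals known, so the overlap is not independent evidence. In the adult testes with the WLA allele, 11 of the 12 genes called higher and 9 of the 12 called lower had a mean of at least 1 CPM, counts scaled to library totals (n = 3 libraries).

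**Figure D1:**
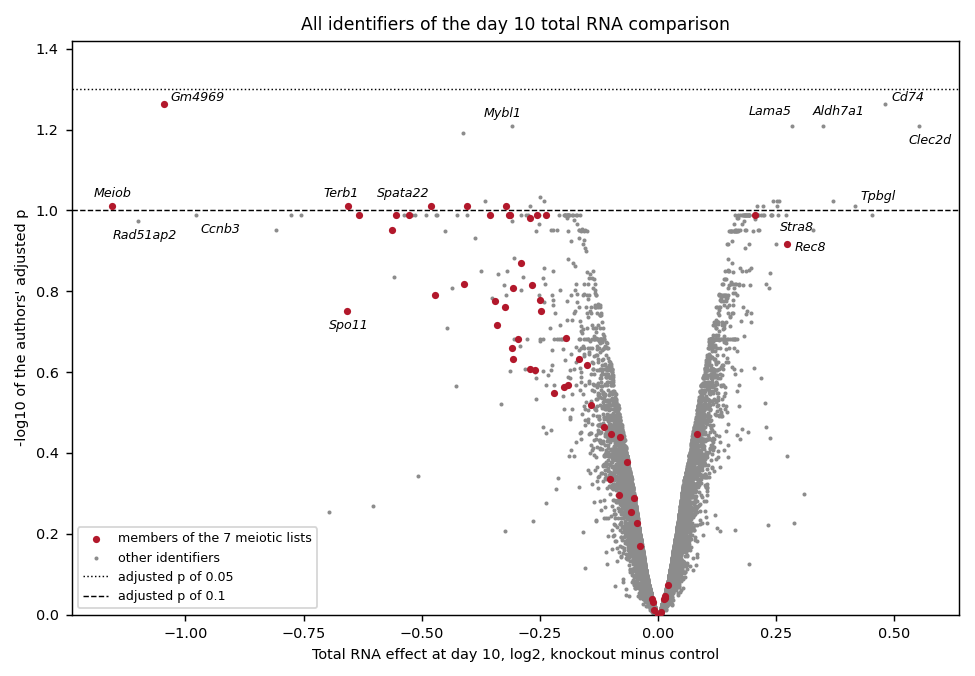
Each point is 1 of the 14846 identifiers, with its total RNA effect at day 10 (log2, knockout minus control) on the horizontal axis and -log10 of the authors' adjusted p on the vertical axis. Red points are measured members of the 7 meiotic lists, and lines mark adjusted p of 0.05 and 0.1; red points spread to the left, down to Meiob at -1.16, and only Stra8, Rec8 and a few near 0 lie to the right.

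Among the genes that fell were 6 of meiotic entry, break placement, strand exchange and telomere attachment. Meiob, whose protein coats single-stranded DNA at meiotic breaks, had the lowest effect of all identifiers in the authors' deposited table, -1.16 (adjusted p 0.0974, anota2seq). Its binding partner Spata22 stood at -0.48 (adjusted p 0.0974) in the authors' deposited table. Terb1 was at -0.66 and Majin at -0.32 in the authors' deposited table (adjusted p 0.0974 for both). The products of both join telomeres to the inner nuclear membrane of spermatocytes. Gm4969, known as Meiosin, had an effect of -1.05 with the smallest adjusted p in all of the authors' deposited table, 0.0546. Prdm9, the histone methyltransferase gene that sets where meiotic breaks form, stood at -0.40 (adjusted p 0.0974) in the authors' deposited table. In whole testis, fewer cells that hold a transcript and less of it in each cell cannot be told apart.

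The promoters of these genes were read from RefSeq, apart from Meiob and Majin, which had no promoter entry and were not searched. The genes of meiotic chromosome structure and recombination, taken as 6 lists that are described gene by gene further on, had an entry in the RefSeq promoter table for 46 of 56 genes. Windows run from 250 bases before to 50 bases after a transcription start in GRCm38.p6, and both strands were searched for 3 motifs, the CNCCTCAG motif of STRA8, the E-box CACGTG and the E2F motif TCCCGC. A match to CNCCTCAG stood in the promoter of 26.1% of the 46 genes, against 10.96% of the 11619 genes with an entry over all identifiers measured at day 10. CACGTG was found in 21.7% of the 46 genes and 11.4% of all, and TCCCGC in 56.5% of the 46 genes and 38.6% of all. Over the 27025 genes of the whole promoter table the shares were 9.12% for CNCCTCAG, 8.09% for CACGTG and 22.05% for TCCCGC. Within the 46 genes, the 22 with an effect below -0.263 held CNCCTCAG in 22.7% and the other 24 in 29.2%. Over all identifiers with a promoter entry, the median effect was -0.0036 for the 1273 with a CNCCTCAG match and 0.0013 for the 10361 without one, both within the quartiles of all identifiers.

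The windows printed are those of Gm4969, Terb1, Spata22 and Prdm9, which fell in the knockout, and those of Rec8 and Stra8, meiotic genes whose effects lay above 0. Capitals mark matches to the 3 motifs on either strand, and every window is written 5′ to 3′ in the direction of transcription. Gm4969 (Bhmg1 in RefSeq) lies at chr7:19118295-19118594 on the minus strand, Terb1 at chr8:104509838-104510137 on the minus strand and Spata22 at chr11:73329491-73329790 on the plus strand. The window of Prdm9 at chr17:15564305-15564604 on the minus strand belongs to 1 of its start sites, and in it a TCCCGC match overlaps a CNCCTCAG match; the window of its other start site, with 1 TCCCGC match, is not printed. Rec8 lies at chr14:55617916-55618215 and Stra8 at chr6:34920698-34920997, both on the plus strand.
Gm4969: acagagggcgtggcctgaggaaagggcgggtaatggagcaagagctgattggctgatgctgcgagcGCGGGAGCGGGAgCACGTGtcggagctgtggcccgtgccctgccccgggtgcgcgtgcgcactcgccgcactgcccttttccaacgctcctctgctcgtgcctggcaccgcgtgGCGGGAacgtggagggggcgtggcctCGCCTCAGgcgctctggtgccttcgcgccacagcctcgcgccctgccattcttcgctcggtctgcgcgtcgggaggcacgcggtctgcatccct
Terb1: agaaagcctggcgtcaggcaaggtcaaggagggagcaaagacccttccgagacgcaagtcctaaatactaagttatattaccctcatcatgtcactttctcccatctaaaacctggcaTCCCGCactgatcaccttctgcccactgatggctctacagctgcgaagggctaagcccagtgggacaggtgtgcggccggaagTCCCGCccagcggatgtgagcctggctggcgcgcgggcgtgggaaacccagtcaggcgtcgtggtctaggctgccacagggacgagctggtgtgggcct
Spata22: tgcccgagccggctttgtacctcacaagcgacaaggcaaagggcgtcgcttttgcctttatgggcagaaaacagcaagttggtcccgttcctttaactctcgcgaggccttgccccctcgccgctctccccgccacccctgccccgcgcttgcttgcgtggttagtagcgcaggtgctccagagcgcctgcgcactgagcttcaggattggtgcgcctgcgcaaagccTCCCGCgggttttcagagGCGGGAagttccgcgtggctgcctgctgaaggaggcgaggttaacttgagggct
Prdm9: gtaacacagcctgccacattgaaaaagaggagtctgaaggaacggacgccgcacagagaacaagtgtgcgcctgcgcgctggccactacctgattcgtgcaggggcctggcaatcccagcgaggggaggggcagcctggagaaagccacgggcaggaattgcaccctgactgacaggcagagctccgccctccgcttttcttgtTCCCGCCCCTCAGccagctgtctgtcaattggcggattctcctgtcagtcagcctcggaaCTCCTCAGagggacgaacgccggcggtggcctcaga
Rec8: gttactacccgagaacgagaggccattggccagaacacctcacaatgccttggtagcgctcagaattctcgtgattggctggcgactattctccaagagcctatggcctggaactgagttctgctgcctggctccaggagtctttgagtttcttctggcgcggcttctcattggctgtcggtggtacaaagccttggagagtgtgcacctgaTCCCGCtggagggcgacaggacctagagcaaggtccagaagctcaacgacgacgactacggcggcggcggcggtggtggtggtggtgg
Stra8: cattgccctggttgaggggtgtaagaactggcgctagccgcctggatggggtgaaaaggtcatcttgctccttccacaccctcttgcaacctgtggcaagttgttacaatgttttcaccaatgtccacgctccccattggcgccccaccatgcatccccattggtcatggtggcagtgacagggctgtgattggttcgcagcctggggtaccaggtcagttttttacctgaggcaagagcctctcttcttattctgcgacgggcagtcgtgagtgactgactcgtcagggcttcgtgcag
Gm4969 held all 3 motifs, Prdm9 the STRA8 and E2F motifs, and Terb1, Spata22 and Rec8 only the E2F motif among the 3. No match was found in the window of Stra8, and the matches describe letters, not bound sites.

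The other 6 genes called lower have roles outside early meiotic chromosomes. Mybl1, the transcription factor gene of pachytene spermatocytes, stood at -0.31 (adjusted p 0.0618, anota2seq) in the authors' deposited table. Hsd17b1, which encodes a 17-beta hydroxysteroid dehydrogenase of sex steroid synthesis, was at -0.41 (adjusted p 0.0643) in the authors' deposited table. Pparg, a nuclear receptor gene of fat cell differentiation, was at -0.37 (adjusted p 0.0949) in the authors' deposited table. Their products act in different cells of the testis and its surroundings. Lgals7, the gene of galectin 7, stood at -0.24 (adjusted p 0.0949), and Fbn2, the gene of the matrix protein fibrillin 2, at -0.25 (adjusted p 0.0924) in the authors' deposited table. Uchl4, a ubiquitin hydrolase gene, stood at -0.27 (adjusted p 0.0974) in the authors' deposited table, and its reads may be shared with its near copy Uchl3.

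The 12 genes that rose had smaller effects, with a median of 0.27 against -0.39 for the 12 that fell. Clec2d, which encodes a C-type lectin-like ligand of natural killer cell receptors, had the highest effect of all identifiers in the authors' deposited table, 0.55 (adjusted p 0.0618, anota2seq). Cd74, the invariant chain of MHC class II, followed at 0.48 with an adjusted p of 0.0546 in the authors' deposited table. Tpbgl stood at 0.42 (adjusted p 0.0974) and Synpo, the gene of the actin-associated protein synaptopodin, at 0.37 (adjusted p 0.0949) in the authors' deposited table. The remaining genes that rose had effects below that of Synpo. Aldh7a1, an aldehyde dehydrogenase gene of lysine breakdown, was at 0.35 and Lama5, the gene of a laminin chain of basement membranes, at 0.28 in the authors' deposited table (adjusted p 0.0618 for both). Cyp26a1, whose enzyme breaks down retinoic acid, stood at 0.26 and Anpep, the gene of aminopeptidase N, at 0.24 in the authors' deposited table (adjusted p 0.0949 for both). The remaining 4 were Scube2, the gene of a secreted protein that helps release hedgehog, at 0.25, Syt17, a synaptotagmin gene, at 0.25, the lipid transporter gene Abca7 at 0.22 and Htatip2 at 0.21 in the authors' deposited table, with adjusted p of 0.0949 for Syt17 and 0.0974 for the others.

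**Figure D2:**
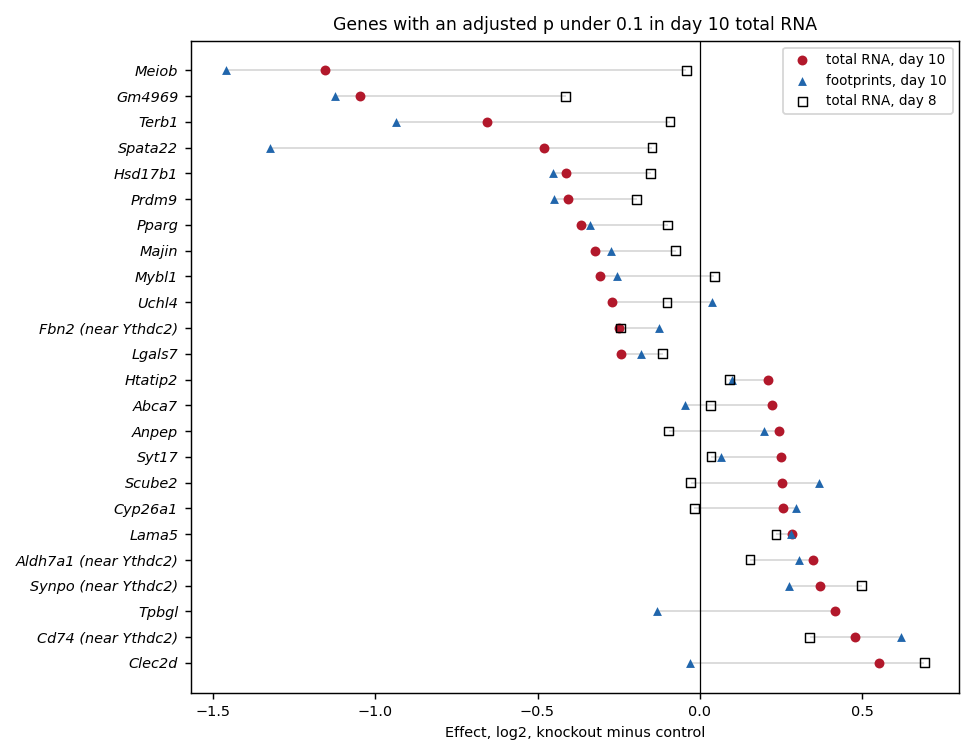
The 24 called genes are listed from the lowest to the highest total RNA effect at day 10 (red circles), with the day 10 footprint effect (blue triangles) and the day 8 total RNA effect (open squares) on the same axis (log2, knockout minus control). Day 8 squares lie nearer to 0 than day 10 circles for 12 of 12 lower genes and for 9 of 11 higher genes, the exceptions being Clec2d and Synpo. The genes were chosen by their day 10 values, which by itself favours values nearer to 0 in other animals.

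Footprints of the same animals and the separate day 8 animals were set beside these values. Day 10 footprints share animals and controls with day 10 total RNA, and in the authors' deposited table no identifier passed 0.1 in footprints (0%, anota2seq). Of the 12 genes called lower, 11 had a footprint effect below 0 and the median was -0.39, and of the 12 called higher, 9 had one above 0 and the median was 0.24. Spata22 had the widest gap among them, at -0.48 in total RNA and -1.32 in footprints in the authors' deposited table. Clec2d (-0.031), Abca7 (-0.046) and Tpbgl (-0.13) had footprint effects below 0 with total RNA effects above 0, and Uchl4, with a total RNA effect below 0, stood at 0.037 in footprints, in the authors' deposited table.

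At day 8, 11 of the 12 genes called lower at day 10 also lay below 0, beside 54.7% of the 7048 identifiers below 0 at day 10 that were measured at both ages. Of the 11 genes called higher at day 10 and measured at day 8, 8 lay above 0 there, beside 48.6% of 7559 identifiers. The day 8 effects were smaller, with medians of -0.11 for the lower and 0.091 for the higher genes. Since the genes were chosen by their day 10 values, smaller effects in other animals can follow from that choice alone. A difference between ages was not tested. An adjusted p under 0.1 at day 8, which 0.119% of 15145 identifiers had, was reached by Gm4969 at -0.41 (adjusted p 0.0057), Clec2d at 0.69 (adjusted p 0.00052), Synpo at 0.50 (adjusted p 0.0502) and Cd74 at 0.34 (adjusted p 0.0592) in the authors' deposited table (anota2seq). The authors' deposited table had Meiob at -1.16 at day 10 and at -0.042 at day 8, the widest gap between ages among the called genes.

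Just outside the threshold lay 88 identifiers with an adjusted p between 0.1 and 0.11, 50 lower and 38 higher. Meiotic list members were 9 of the 50 lower ones and 1, Stra8, of the 38 higher ones. The median effect was -0.26 over the lower and 0.19 over the higher identifiers. Rad51ap2 had the next lowest effect after Meiob, -1.10 (adjusted p 0.106, anota2seq), in the authors' deposited table. Ccnb3, which encodes the germline cyclin B3, stood at -0.98, Tesmin, a germ cell gene of the CXC domain family, at -0.78 and Fbxo47, an F-box gene needed for spermatocytes to hold synapsis, at -0.76 in the authors' deposited table (adjusted p 0.102 for all 3). Zfp541, the gene of a zinc finger protein of spermatocytes, had an effect of -0.81 (adjusted p 0.112) in the authors' deposited table. These values are as large as those of the called genes, and their adjusted p missed the threshold by little. Crisp1, an epididymal gene, had -0.70 with an adjusted p of 0.557 in the authors' deposited table. On the higher side Marchf3, a membrane-bound ubiquitin ligase gene, stood at 0.45 (adjusted p 0.102) and Tle7 at 0.33 (adjusted p 0.112) in the authors' deposited table. Upk3b, a uroplakin gene, had 0.31 (adjusted p 0.505) and Car3, a carbonic anhydrase gene of muscle and fat, 0.29 (adjusted p 0.594) in the authors' deposited table.

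Genes of meiosis were then taken as 7 lists, 1 of entry factors and 6 of meiotic chromosome structure and recombination, with 64 of 65 genes measured. Their median effect was -0.23, beside 0.00058 over all identifiers, and 52 of 64 lay below 0. By size, 31 of the 100 lowest effects and 2 of the 100 highest belonged to these lists, and 27 of the 75 effects below -0.263 and 1 of the 13 above 0.263 did. The lists were drawn up with earlier results of these animals known, so their direction is not independent evidence. Over the 6 chromosome lists all 56 genes were measured, with a median of -0.25 and quartiles of -0.33 and -0.063; 48 lay below 0, and 5 were called lower and none higher. At an adjusted p of 0.15, 16 of the 56 were lower and 1 was higher, where the whole table had 0.694% lower and 0.64% higher.

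The factors that act at meiotic entry did not share 1 direction. Of the 8 measured, 4 lay below 0 and 4 above it, with a median of -0.0038, and Gm4969 alone was called. Stra8, whose product pairs with MEIOSIN, stood at 0.20 (adjusted p 0.102, anota2seq) in total RNA and 0.24 in footprints at day 10, and day 8 total RNA gave -0.065 in the authors' deposited table. The 2 partners in 1 transcription complex thus had effects of opposite sign, with Gm4969 at -1.05. Meioc, whose protein binds YTHDC2, had -0.083 (adjusted p 0.506), and Rbm46, the gene of an RNA-binding protein that acts with them, 0.0022 (adjusted p 1) in the authors' deposited table. Taf4b, a germ cell transcription cofactor gene, was at -0.10, Dazl, a germ cell RNA-binding protein gene, at -0.0086, Dmrt1, which holds back meiotic entry in spermatogonia, at 0.00094 and Zglp1, a GATA-like factor gene, at 0.013 in the authors' deposited table (adjusted p 0.358 or more).

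Genes of the chromosome axis and meiotic cohesin had a median of -0.30, with 7 of 8 below 0 and none called. Rad21l, which encodes a kleisin subunit of meiotic cohesin, stood at -0.63 and Sycp2, an axis core gene, at -0.53 in the authors' deposited table (adjusted p 0.102 for both, anota2seq). Hormad1, the gene of an axis protein that promotes break formation and synapsis, was at -0.36 (adjusted p 0.102), Sycp3, the partner of SYCP2, at -0.32 (adjusted p 0.173) and Hormad2 at -0.22 (adjusted p 0.283) in the authors' deposited table. The cohesin genes Smc1b and Stag3 stood at -0.27 (adjusted p 0.105) and -0.25 (adjusted p 0.166) in the authors' deposited table. Rec8 went against the rest of its list. This second meiotic kleisin gene had an effect of 0.27 (adjusted p 0.121) in total RNA and 0.41 in footprints at day 10, and day 8 total RNA gave -0.039 in the authors' deposited table.

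All 6 genes of the synaptonemal complex, the zipper between homologous chromosomes, lay below 0, with a median of -0.25 and none called. Sycp1, the gene of the transverse filament, stood at -0.26 (adjusted p 0.102, anota2seq) in the authors' deposited table. The genes of the central element ran from Tex12 at -0.34 (adjusted p 0.167) over Syce3 at -0.31 (adjusted p 0.156), 4930447C04Rik (Six6os1) at -0.24 (adjusted p 0.102) and Syce2 at -0.19 (adjusted p 0.207) to Syce1 at -0.10 (adjusted p 0.463) in the authors' deposited table.

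Genes of double-strand break formation had a median of -0.27, with 8 of 9 below 0 and Prdm9 called. Spo11, which encodes the enzyme that cuts the DNA, stood at -0.66 (adjusted p 0.177, anota2seq) in total RNA and at -1.12 (adjusted p 0.108) in footprints at day 10, and day 8 total RNA gave -0.016 in the authors' deposited table. With Gm4969 and Spata22 it was among the 4 identifiers (0.0269%) under an adjusted p of 0.15 in footprints. Gm960, the gene of the TOPOVIBL partner of SPO11, was at -0.29 (adjusted p 0.135) in the authors' deposited table. Ccdc36 (IHO1) stood at -0.30, Zcwpw1, whose product reads marks set by PRDM9, at -0.27 and Ankrd31 at -0.26 in the authors' deposited table (adjusted p 0.153 to 0.248). Effects were smaller for Mei1 (-0.17), Mei4 (-0.082) and Rec114 (0.0021) in the authors' deposited table, with adjusted p of 0.233, 0.363 and 1. The products of Rec114 and Mei4 form a complex, together with IHO1, that SPO11 needs.

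Genes of strand exchange separated into those with negative effects and those near 0, with a median of -0.14 and 8 of 11 below 0. Beside Meiob and Spata22, Hsf2bp, whose product brings BRCA2 to meiotic breaks, stood at -0.32 and Dmc1, the meiotic recombinase gene, at -0.31 in the authors' deposited table (adjusted p 0.102 for both, anota2seq). 4930432K21Rik (Brme1), the partner of Hsf2bp, was at -0.27 (adjusted p 0.247) and Brca2 at -0.14 (adjusted p 0.302) in the authors' deposited table. Genes near 0 were Psmc3ip (-0.057) and Mnd1 (0.0067), whose products form the HOP2 and MND1 complex, and Swsap1 (-0.012) and Zswim7 (0.015) in the authors' deposited table (adjusted p 0.558 or more).

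Crossover genes had a median of -0.15, with 12 of 15 below 0 and none called. Msh5, of the MutS complex that holds crossover intermediates, stood at -0.56 (adjusted p 0.112, anota2seq) and its partner Msh4 at -0.31 (adjusted p 0.219) in the authors' deposited table. Hfm1, a helicase gene of crossover formation, was at -0.55 (adjusted p 0.102) in the authors' deposited table. Cntd1, a cyclin-like gene of late crossover sites, was at -0.34 and Mcmdc2, an MCM-like gene, at -0.31 in the authors' deposited table (adjusted p 0.192 and 0.233). Shoc1 (-0.20), 1700102P08Rik (-0.19), Rnf212 (-0.15) and Prr19 (-0.11) had smaller effects in the authors' deposited table (adjusted p 0.242 to 0.343). Mlh3 and Exo1, which act at late steps, lay near 0, at -0.038 and 0.021 in the authors' deposited table. Ccnb1ip1 (-0.050), Tex11 (0.015) and Trip13 (0.083) also had small effects in the authors' deposited table (adjusted p 0.357 or more).

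All 7 genes of meiotic telomere attachment lay below 0, with a median of -0.32, and Terb1 and Majin were called. Spdya, which encodes the activator of CDK2 at telomeres, stood at -0.47 (adjusted p 0.162, anota2seq) and Ccdc155 (KASH5), the link to dynein in the cytoplasm, at -0.41 (adjusted p 0.152) in the authors' deposited table. Terb2, the third member of the complex with TERB1 and MAJIN, was at -0.25 (adjusted p 0.177) in the authors' deposited table. Sun1 (-0.065) and Cdk2 (-0.045), which other cells of the testis use too, lay near 0 in the authors' deposited table (adjusted p 0.419 and 0.592).

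**Figure D3:**
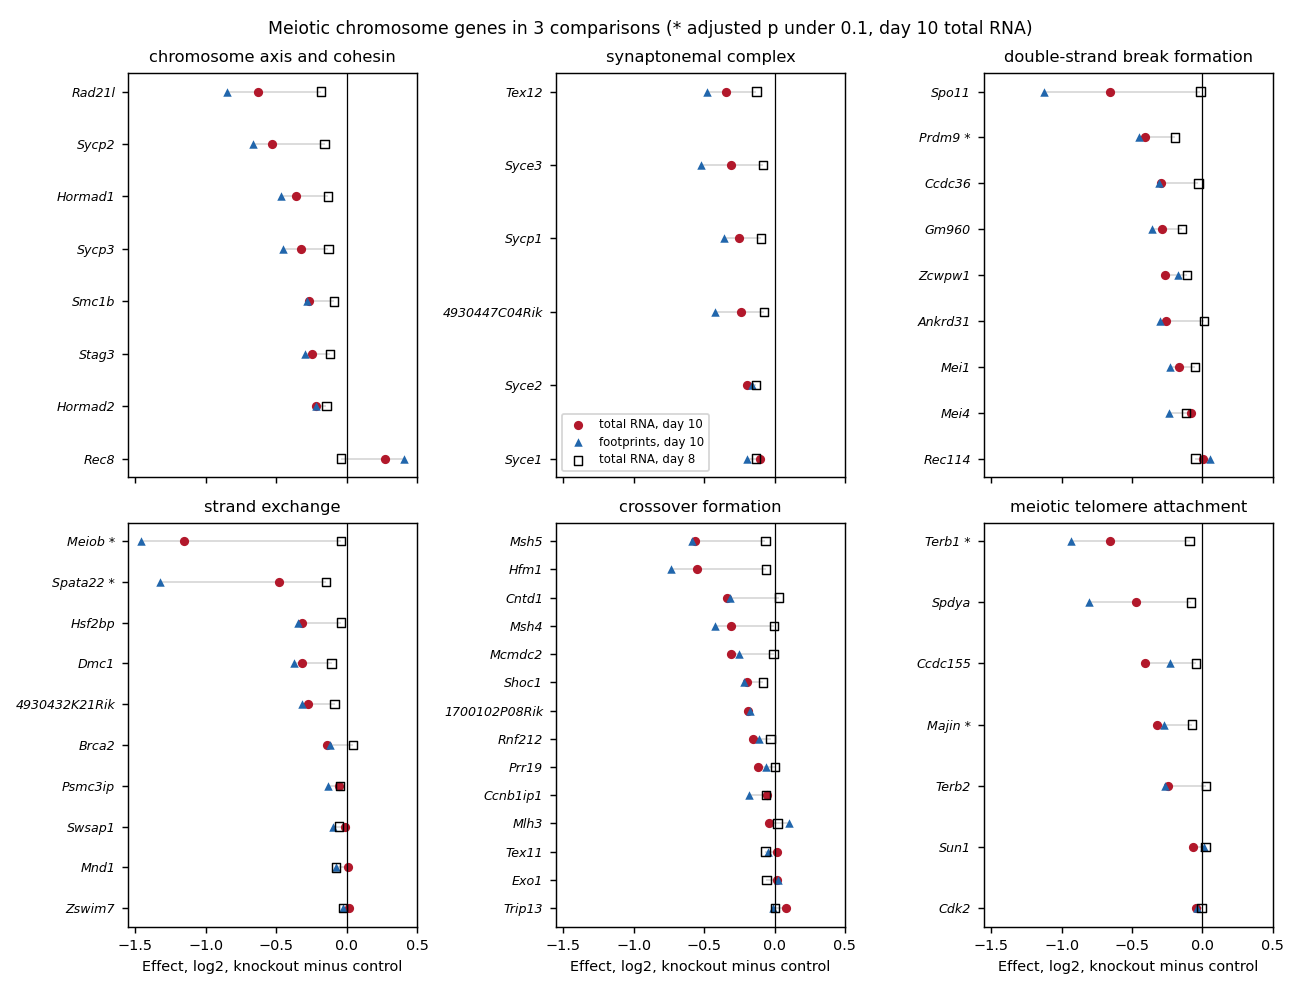
Each panel shows genes of 1 of the 6 lists of meiotic chromosome genes, with effects (log2, knockout minus control) of day 10 total RNA (red circles), day 10 footprints (blue triangles) and day 8 total RNA (open squares); a star marks an adjusted p under 0.1 in day 10 total RNA. Most circles and triangles lie left of the squares, and Rec8, at 0.27, lies to the right of 0.

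Over the 6 chromosome lists the median footprint effect at day 10 was -0.26 and 51 of 56 genes lay below 0. In the day 8 animals the median total RNA effect of these genes was -0.062 and 46 of 55 measured lay below 0. At day 10, 26 of them had an effect below -0.263, and at day 8 none of the 55 did. The day 10 effect was the lower one for 43 of 55. The 2 ages differ in animals and in their controls, which at day 8 were all wild type, and the difference between ages was not tested.

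The lists of germ cell genes before and after this step had medians between -0.0098 and 0.058. The measured genes of undifferentiated spermatogonia had a median of 0.017, with 7 of 17 below 0, and ran from Lhx1 at -0.12, Etv5 at -0.045 and Cdh1 at -0.045 to Sall4 at 0.091 and Utf1 at 0.12 in the authors' deposited table. The median was 0.058 over 10 genes of differentiating spermatogonia, with 3 below 0. In the authors' deposited table Ccnd2 (-0.089), Rhox13 (-0.031) and Prss50 (-0.022) were lowest, and Sohlh2, a transcription factor gene of these cells, at 0.14 and the homeobox gene Esx1 at 0.20 (adjusted p 0.102, anota2seq) were highest. Kit, the stem cell factor receptor gene, stood at 0.099 in the authors' deposited table. None of these genes was called. At day 8 all 10 genes of differentiating spermatogonia lay below 0, with a median of -0.088.

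Germ cell and piRNA pathway genes had a median of -0.0098, with 9 of 17 below 0, from Mael (-0.10), Gpat2 (-0.093) and Rnf17 (-0.075) to Gtsf1 (0.059) and Tex19.1 (0.077) in the authors' deposited table. Mitotic cell cycle genes had a median of 0.020, with 7 of 20 below 0. Their range in the authors' deposited table was from the spindle checkpoint kinase gene Bub1 at -0.18, Top2a at -0.12 and Mki67 at -0.029 to Kif20a at 0.088 and Ccna2, the gene of cyclin A2, at 0.10. Neither list had a called gene. Of the pachytene list 9 of 12 genes were measured, with a median of -0.0035 and 5 below 0, and Mybl1 alone was called. The others were Hspa2 (-0.10), Aurkc (-0.058), Ovol1 (-0.012), Rfx2 (-0.0035), Ldhc (0.017), Piwil1 (0.023), Tcfl5 (0.053) and Ccna1 (0.077) in the authors' deposited table. Piwil1 and Ccna1 are genes that later spermatocytes use. The 3 round spermatid genes measured were Crem at -0.078, Tnp1 at 0.028 and Spaca1 at 0.070 in the authors' deposited table.

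Genes of retinoic acid metabolism and its receptors had a median of 0.057, with 13 of 15 above 0, and Cyp26a1 was called higher. Rarg, a retinoic acid receptor gene, stood at 0.17 (adjusted p 0.152, anota2seq) in the authors' deposited table. Rara (-0.032), Cyp26b1 (-0.024) and Aldh1a1 (0.022) were lowest in the authors' deposited table. At day 8 the median over these genes was -0.024. The list of m6A writers, erasers and readers, in which Xrn1 was also counted, had a median of -0.021 with 10 of 15 below 0 and none called. Zc3h13 (-0.063), Mettl14 (-0.057) and Alkbh5 (-0.046) were lowest and Ythdf3 (0.023) and Fto (0.056) highest in the authors' deposited table. Xrn1, the gene of the 5′ to 3′ exonuclease that binds YTHDC2, stood at 0.0013 (adjusted p 1) in the authors' deposited table.

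**Figure D4:**
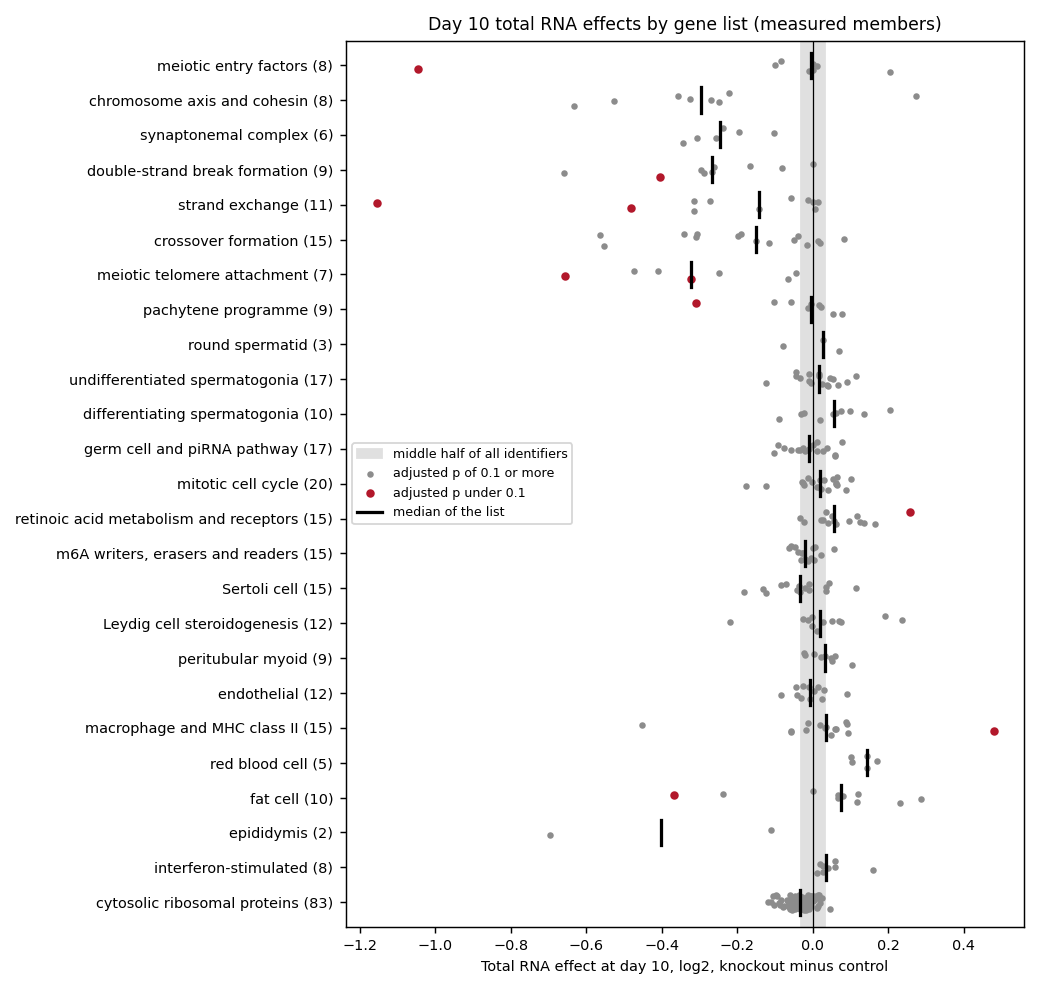
Total RNA effects at day 10 (log2, knockout minus control) are shown for the measured members of the 25 lists, with their number in brackets; red points passed an adjusted p of 0.1, black bars are list medians and the grey band spans the quartiles of all identifiers, -0.030 to 0.033. The bars of the 6 lists of meiotic chromosome genes lie between -0.32 and -0.14, left of the band, and those of the other lists lie between -0.034 and 0.074, apart from red blood cell genes at 0.14 and epididymis genes at -0.40.

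Markers of other cells were measured as a check on the makeup of the samples. Sertoli cell genes had a median of -0.034 with 11 of 15 below 0, from Amh, the anti-Mullerian hormone gene, at -0.18, Kitl at -0.13 and Gdnf at -0.12 to Cldn11 at 0.044 and Rhox5 at 0.12 in the authors' deposited table. Leydig cell genes had a median of 0.020 with 5 of 12 below 0, from Hsd17b3, the gene of the enzyme that makes testosterone, at -0.22, Hsd3b1 at -0.027 and Nr5a1 at -0.011 to Star at 0.19 and Hsd3b6 at 0.24 in the authors' deposited table. Peritubular myoid genes had a median of 0.033 with 2 of 9 below 0, and endothelial genes one of -0.0077 with 7 of 12 below 0. No gene of these 4 lists was called. The myoid genes ran from Mylk (-0.022) and Myh11 (-0.021) over Tagln (0.0038), Myl9 (0.023), Tpm2 (0.033), Des (0.049), Acta2 (0.051) and Cnn1 (0.058) to Actg2 (0.10), and the endothelial genes from Kdr (-0.084), Eng (-0.044) and Cdh5 (-0.041) to Tek (0.030) and Egfl7 (0.090), in the authors' deposited table.

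Macrophage and MHC class II genes had a median of 0.036 with 5 of 15 below 0, and Cd74 was called higher. The other MHC class II genes did not share its value: H2-Ab1 stood at -0.45 (adjusted p 0.112, anota2seq), H2-Aa at -0.017 and H2-Eb1 at 0.094 in the authors' deposited table. Macrophage genes ran from Ptprc (-0.058) and Cx3cr1 (-0.056) to Cd68 at 0.092 in the authors' deposited table. All 5 red blood cell genes measured lay above 0, with a median of 0.14. They were Hbb-bs (0.17), Hba-a2 (0.14), Hbb-bt (0.14), Hba-a1 (0.10) and Alas2 (0.10) in the authors' deposited table, with adjusted p of 0.148 or more, and near-identical globin genes may share reads. At day 8 all 5 lay below 0, with a median of -0.18. Their part in the other effects was not tested.

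Fat cell genes had a median of 0.074 with 3 of 10 below 0, and Pparg was called lower. Car3 (0.29) and Fabp4 (0.23) were highest and Lpl at -0.24 lowest after Pparg in the authors' deposited table, and at day 8 the median was 0.15. The next values in the authors' deposited table were Plin1 at -0.00016 and Cfd at 0.12. Pparg and Lpl thus lay opposite to Car3 and Fabp4 in total RNA. In day 10 footprints the list had a median of -0.12, with 8 of 10 genes below 0. Both epididymis genes measured lay below 0, Crisp1 at -0.70 and Cst11 at -0.11 (adjusted p 0.247, anota2seq) in the authors' deposited table, and 8 of 10 were not among the identifiers. All 8 interferon-stimulated genes lay above 0, with a median of 0.035, from Oas1a (0.012) over Ifit3 (0.020), Usp18 (0.027), Irf7 (0.028), Rtp4 (0.042) and Isg15 (0.059) to Oasl2 (0.16, adjusted p 0.152) in the authors' deposited table. Cytosolic ribosomal protein genes have many pseudogenes that can take part of their reads. Of 83 such genes 71 lay below 0, with a median of -0.033. In the authors' deposited table Rpl35 (-0.12), Rpl36 (-0.11) and Rplp2 (-0.10) were lowest and Rpl36al (0.024) and Rps29 (0.046) highest.

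Over all positions, 24 of 14846 identifiers (0.162%) were called. Chromosome 7 held 7 of these 24 genes among its 1117 measured identifiers, 5 higher and 2 lower. Chromosome 18, which carries Ythdc2, held 4 among 383, 3 higher and 1 lower. These 4, Cd74, Synpo, Aldh7a1 and Fbn2, lay within 20 Mb of Ythdc2, a stretch with 1.51% of all identifiers and with 7 of the 100 largest effects in either direction. The part of this position in their effects was not tested. The other 20 called genes, 9 higher and 11 lower, lay outside this stretch. Within 10 Mb of Ythdc2, where 140 identifiers lay, none was called. Chromosome X had 654 identifiers, none called, and a median of -0.0015. At a share of 0.162%, sets of these sizes would hold few or no called genes, so the lack of calls there says little.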

How the data were processed

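RNA was taken up in Trizol, and libraries were made after ribosomal RNA removal or poly(A) selection, per the labels' protocols; the choice for each library is not stated. STAR, DESeq2 and mm10 are named in the submitters' processing notes, without the gene annotation or the counting step. For the juvenile animals the authors deposited anota2seq 1.14.0 output, with effects and adjusted p-values of total RNA and footprints, per the file headers and description; the adjustment method is not stated. The base of the deposited effects is not stated either. They were read as log2, since the 53 genes in the authors' translation class at day 10 all differ by 0.263 or more between footprints and total RNA, and they may be shrunk, so they are not plain folds. Direction was taken from the description, which names the knockout first. The authors also deposited raw counts per gene for adult testis; 3 heterozygous libraries with total counts from 36161501 to 43707798 were turned into CPM by their totals, as a guide to level.

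Single genes were not tested anew, as the juvenile tables hold no value per animal. A gene was called at an adjusted p under 0.1. Symbols came from the adult table for 14685 identifiers with their version and for 158 without it, and 3 had none. Positions and promoters came from RefSeq (GRCm38.p6, the assembly of mm10) by symbol or synonym, with a position for 98.7%. Genes named are those called, the 10 lowest and 10 highest effects with a proper symbol, all measured members of lists with 9 or fewer of them and otherwise the 3 lowest and 2 highest, and Meioc, Rbm46 and Xrn1; other members were named after their values were seen, and a few members are counted in their lists but not reported here by name. The comparison, the 25 gene lists and the rules were chosen with earlier results of these data known. Alternatives were thresholds of 0.05, 0.11 and 0.15, a minimum effect of 0.263, the mean of each list, members measured at day 8, the symbol join, and other windows around Ythdc2. The summary code, written in Python 3.11.15 with pandas 2.3.3 and numpy 2.4.6, was tested on simulated data; figures used matplotlib 3.10.9.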

Additional observations from a re-analysis of the deposited data

How the results depend on the processing

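The number of called genes depended on the threshold: 0 identifiers passed an adjusted p of 0.05 (0 higher and 0 lower, anota2seq), 198 passed 0.15 (95 higher and 103 lower), and 112 passed 0.11 (50 higher and 62 lower), a threshold chosen after seeing the data. If the adjusted values are Benjamini-Hochberg values over these identifiers, at most 1856 of them had an unadjusted p under 0.05. With an effect of at least 0.263 in size also asked for, 6 of the 12 higher and 10 of the 12 lower genes were left, and without the 20 Mb around Ythdc2 20 were left.

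Of 150 list medians recomputed, 147 moved by less than the SD of effects over identifiers, 0.067, and none changed sign. The exceptions were the mean of the entry factors, -0.13, in a list where Gm4969 stands at -1.05, the mean of strand exchange, -0.25, in a list where Meiob stands at -1.16, and the epididymis list with the member measured at day 8 alone, -0.11. Most settings took few or no members out of a list, so most medians could hardly move. Leaving out members of another list changed no median, and subtracting the median of all identifiers shifted each by 0.00058 alone. The count of 147 thus says little about how stable the medians are. Within 20 Mb of Ythdc2 lay 12 of the 200 largest effects, and within 10 Mb 3 of the 100 largest.

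No paired analysis was possible because the juvenile tables hold no value per animal. For the same reason no animal was left out in turn, and depth and the spread between animals are unknown here.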

Other observations

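The 7 lists of meiotic genes did not hold all of the low effects. Of the 50 lowest identifiers 17 were members of these lists, and among the others in the authors' deposited table were the homeobox gene Pbx3 at -0.55, Inca1 at -0.54, the sphingomyelinase gene Smpd3 at -0.51 and Dmrtc2, a germ cell gene of the DMRT family, at -0.47 (anota2seq adjusted p 0.102 for all 4). In footprints the authors' deposited table gave -0.086 for Smpd3, -0.47 for Dmrtc2 and -0.76 for Inca1. Marchf3, near Ythdc2, stood at 0.45 in total RNA and at -0.75 in footprints at day 10, and day 8 total RNA gave 0.64, in the authors' deposited table. Lvrn, an aminopeptidase gene near Ythdc2, stood at -0.40 (adjusted p 0.102) at day 10 and at -0.68 (adjusted p 0.00052) at day 8 in the authors' deposited table. E2f2, a cell cycle transcription factor gene, was given in the authors' deposited table at 0.24 at day 10 (adjusted p 0.102) and at -0.021 at day 8. All genes in this paragraph but Marchf3 were named after their values were seen.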
